A study of Homo sapiens with 6 samples.

Results

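The early growth response (EGR) transcription factors EGR1, EGR2 and EGR3 and the corepressors NAB1 and NAB2 were examined in a human breast cancer cell line sorted by how much membrane dye the cells had kept. The members were taken by gene symbol, and all 5 were found among the 58735 genes of the deposited tables. Every library came from MDA-MB-231, an established triple-negative breast cancer line, labelled WT and grown in DMEM with fetal bovine serum. The cells were stained with PKH26, a membrane dye that is diluted at each division, and were grown for 12 days before sorting. The slow-cycling cells (SCC, labelled PKH26hi) were the brightest 1% and the rapid-cycling cells (RCC) were of moderate brightness per the protocol, although their characteristics name them PKH26lo. There were 3 RNA-seq libraries of each, called biological replicates in the series text, which does not say whether each came from a culture of its own. The p-values measure the spread between these libraries.

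The EGR factors are zinc finger proteins that bind a GC-rich DNA element. Their genes are immediate early genes, switched on within minutes of growth factor, serum or stress signals without new protein synthesis. In textbook accounts the signal runs through the RAF and ERK kinases to serum response factor (SRF) and its ELK partners, which sit on CArG boxes in the EGR1 promoter. NAB1 and NAB2 bind an inhibitory domain of EGR1, EGR2 and EGR3 and recruit the NuRD chromatin complex through its subunit CHD4, which limits transcription from EGR target promoters. NAB2 is itself known as an EGR target, so that the pair of gene groups can form a negative feedback loop.

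RefSeq promoter windows on GRCh38.p14 were available for 4 of the 5 members (EGR1, EGR2, NAB1 and NAB2), and the 250 bases before each listed transcript start were searched on both strands. The sequences below are the windows with CArG boxes and the short stretches with EGR sites, since these are the elements of the signal and of the feedback. The EGR1 window (chr5:138465229-138465478, plus strand) and the window before 1 of the 3 EGR2 starts (chr10:62816367-62816616, minus strand) are shown 5′ to 3′ on the gene's strand, with CArG boxes in capitals.
EGR1: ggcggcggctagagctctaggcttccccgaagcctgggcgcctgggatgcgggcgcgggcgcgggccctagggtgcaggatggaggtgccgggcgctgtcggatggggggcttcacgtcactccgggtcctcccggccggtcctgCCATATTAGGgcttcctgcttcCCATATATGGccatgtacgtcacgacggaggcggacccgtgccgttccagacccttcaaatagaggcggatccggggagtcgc
EGR2: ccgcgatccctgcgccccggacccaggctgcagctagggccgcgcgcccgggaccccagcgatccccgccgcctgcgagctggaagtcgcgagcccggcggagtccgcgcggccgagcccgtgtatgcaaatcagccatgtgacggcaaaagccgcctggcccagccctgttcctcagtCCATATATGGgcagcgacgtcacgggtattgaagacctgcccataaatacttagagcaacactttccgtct
The EGR1 window held 2 CArG boxes, at bases -105 to -96 and -83 to -74 from the start. The EGR2 window held 1, at -71 to -62. A CArG box was present in 1.16% of all 35116 windows of this length. Each of these windows also held 2 copies of TGACG, the half-site of the cAMP response element, which 21.2% of all windows held at least once. Neither held an EGR site (GCGTGGGCG or GCGGGGGCG).

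No NAB window held a CArG box, and EGR sites lay in the NAB2 window and in 2 of the 3 NAB1 windows. The NAB1 window before the third start held none. In the stretches that follow, on the plus strand, the capitals mark EGR sites as read on either strand.
NAB1 (chr2:190648846-190648875): cagcggcCGCCCCCGCCCCCGCccggcggc
NAB1 (chr2:190648898-190648927): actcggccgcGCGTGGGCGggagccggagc
NAB2 (chr12:57089042-57089071): tgtgcgtcctGCGGGGGCGgaggcgcggag
The first NAB1 stretch holds 2 overlapping sites and lies before both of the first 2 listed NAB1 starts, and the second lies before the later of these. The NAB2 site lies at bases -62 to -54 from its start. An EGR site was present in 5.37% of all windows. Every EGR site in the member windows overlapped a GC box (GGGCGG), which 42.6% of windows held, so these letters are shared with the SP factors. No member window held an AP-1 element (TGANTCA), against 6.57% of all windows. A match describes the letters in these windows, and binding was not measured.

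**Figure D1:**
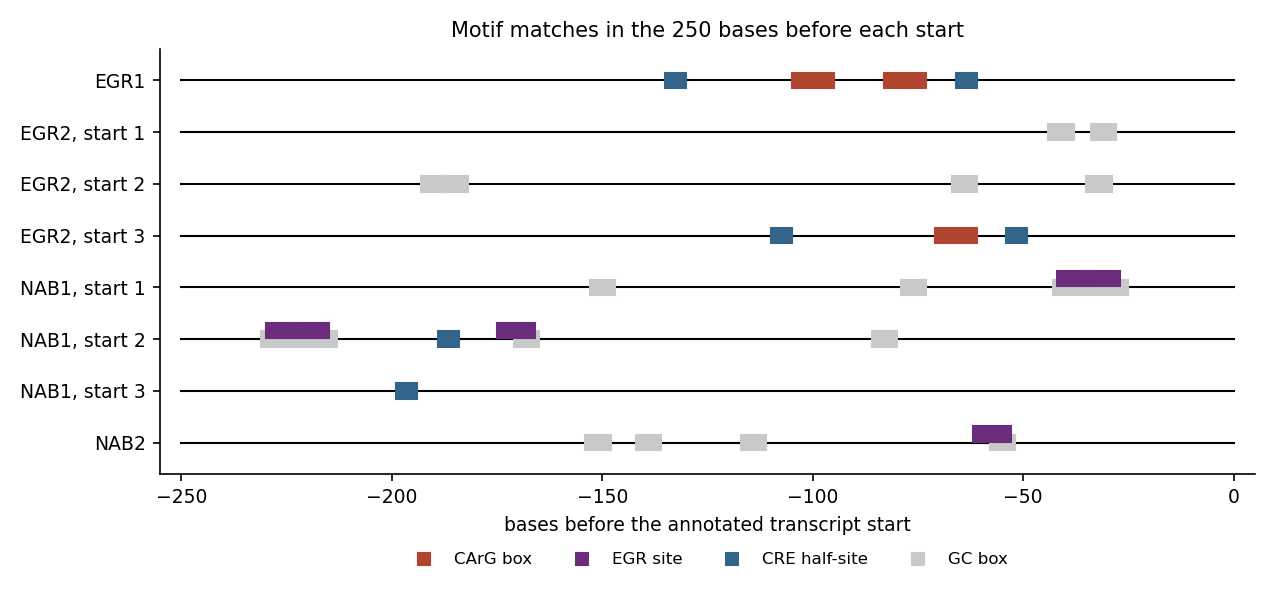
Positions of motif matches in the 250 bases before each RefSeq transcript start of EGR1, EGR2, NAB1 and NAB2, in bases from the start (x axis), with 1 line for each start. CArG boxes lie in the EGR1 window and in 1 EGR2 window, and EGR sites lie in windows of NAB1 and NAB2.

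All 3 EGR genes were higher in SCC than in RCC, and neither NAB gene passed the test. EGR1 rose from 20.3 to 74.2 FPKM (counts scaled by gene length and library depth), whereas EGR2 and EGR3 rose but stayed below 0.4 FPKM in every library. NAB2 was 9.82 FPKM in SCC and 8.34 in RCC, and NAB1 was 7.48 and 8.24. Genes were called at an adjusted p under 0.05 in edgeR's quasi-likelihood test with Benjamini-Hochberg adjustment. Over the 15881 genes tested, 268 (1.69%) were called higher in SCC and 60 lower, and the groups did not overlap for 27.8%. The members were chosen with earlier results of these data known, so their 3 calls in 5 are a description beside that first share. EGR2 and EGR3 had at most 6 counts in any RCC library. They passed the filter on low counts only through SCC, the group where they were high, so their calls are no independent support. Bulk RNA does not tell more EGR1 mRNA per cell from a larger fraction of cells that express it.

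EGR1 (ENSG00000120738, chr5:138465490-138469315, plus strand) encodes the founding member of the family. It was at 92.6, 66.2 and 63.9 FPKM in SCC replicates 1 to 3 and at 21.3, 19.5 and 20.1 FPKM in RCC replicates 1 to 3. SCC replicate 1 was the highest, the other SCC libraries lay close together, and the lowest SCC value was still well above all RCC values. These levels rest on 4084 to 7955 counts per library in SCC and 1134 to 1553 in RCC. Ranked by FPKM over all genes, EGR1 stood at places 383, 588 and 622 in the SCC libraries and at 2281, 2587 and 2438 in the RCC libraries. The log2 fold change (SCC over RCC) was 1.88 with a standard error of 0.132 and a 95% interval of 1.59 to 2.17 (edgeR, Benjamini-Hochberg adjusted p = 2.6e-05). By p it was gene 13 of those tested, and by fold change gene 47. SD in FPKM was 16.0 in SCC and 0.928 in RCC (n = 3 each). No other annotated gene overlaps EGR1.

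EGR2 (ENSG00000122877, chr10:62811996-62919900, minus strand) is best known for myelination and for hindbrain patterning. It gave only 22, 27 and 15 counts in the SCC libraries and 6, 3 and 4 in the RCC libraries. On the FPKM scale this was 0.218, 0.372 and 0.192 in SCC and 0.0701, 0.0390 and 0.0604 in RCC, with means of 0.261 ± 0.0975 and 0.0565 ± 0.0159 (SD, n = 3). All SCC values were above all RCC values. Summed over the group, 64 counts in SCC (exact 95% Poisson interval 49.3 to 81.7) stood against 13 in RCC (6.92 to 22.2). Scaled for depth, the ratio of these sums was 4.41 (2.41 to 8.73), an interval that covers counting error only. The fitted log2 fold change was 2.16 ± 0.471 (SE), with an edgeR Benjamini-Hochberg adjusted p of 0.0444. That call was lost without SCC replicate 2 (adjusted p = 0.0671), SCC replicate 3 (0.0818), RCC replicate 1 (0.173), RCC replicate 2 (0.202) or RCC replicate 3 (0.167), and in DESeq2 (0.0621), with the direction kept each time.

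EGR3 (ENSG00000179388, chromosome 8, bases 22687659 to 22693302, minus strand) is known from T cells, muscle spindles and neurons. It was near the limit of detection, at 15, 18 and 12 counts in SCC and 3, 0 and 2 in RCC. Its FPKM values were 0.113, 0.189 and 0.117 in SCC and 0.0266, 0 and 0.0229 in RCC. In RCC replicate 2, where no count was seen, the level could still be up to 0.143 CPM (counts scaled by depth alone), the value of 3 counts. The group sums of 45 (32.8 to 60.2) and 5 (1.62 to 11.7) gave a depth-scaled ratio of 8.06, with a counting interval of 3.21 to 26.0. The fitted log2 fold change was 2.97 ± 0.663 (SE), the largest of the 5 members and the least precise (edgeR, Benjamini-Hochberg adjusted p = 0.0475). The call was lost without SCC replicate 2 (adjusted p = 0.0616), SCC replicate 3 (0.102), RCC replicate 1 (0.165), RCC replicate 2 (0.171) or RCC replicate 3 (0.169). DESeq2 gave no adjusted p for it. An antisense gene, AC055854.1, shares 164 exonic bases with EGR3 and had 0 to 2 counts in every library. EGR4, the remaining family member, had 0 counts in all 6 libraries.

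**Figure D2:**
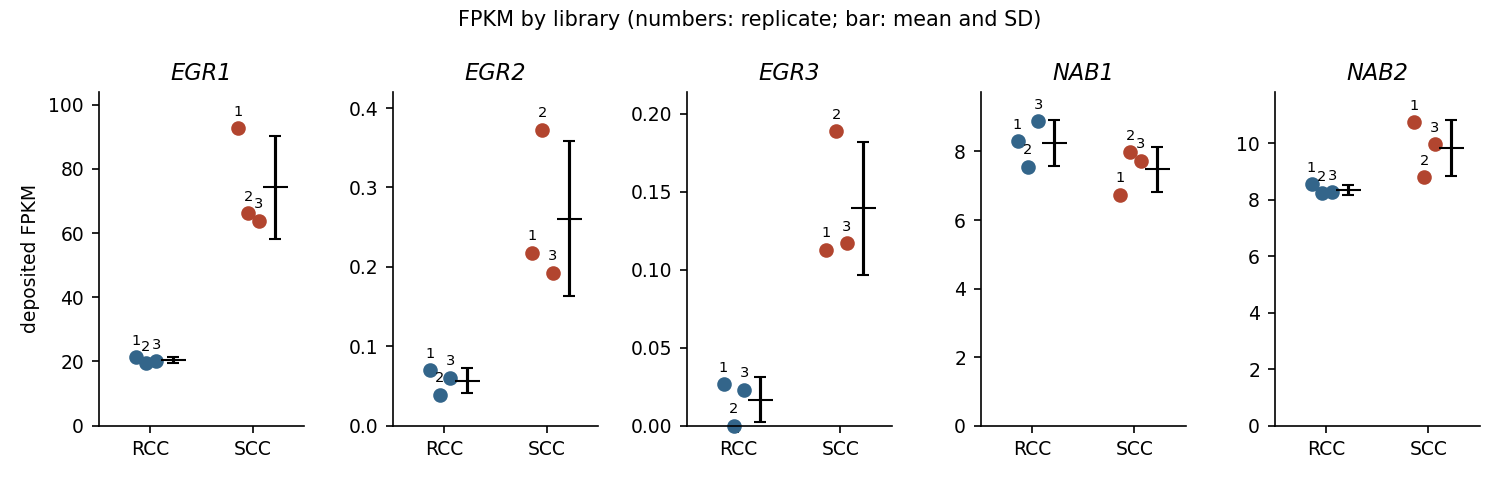
FPKM of each member (y axis) in the 3 SCC and 3 RCC libraries, with points for libraries and a bar for the mean ± SD. The SCC points lie above all RCC points for EGR1, EGR2, EGR3 and NAB2, and the groups overlap for NAB1.

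NAB2 (ENSG00000166886, chr12:57088894-57095476, plus strand) was at 10.7, 8.79 and 9.95 FPKM in SCC and at 8.53, 8.22 and 8.25 FPKM in RCC. Every SCC value was above every RCC value, by a margin smaller than the spread within SCC. The log2 fold change was 0.25, with a 95% interval of 0.03 to 0.46, an unadjusted p of 0.0282 and an edgeR Benjamini-Hochberg adjusted p of 0.204. The interval lies wholly below that of EGR1. SCC replicate 1 read higher than the other libraries for GC-rich genes, by a median of 0.40 on the log2 scale in the decile of genes with the highest GC content, where the others ran from -0.16 to 0.03. The longest annotated transcript of NAB2 is 62.6% GC, the highest of the members. With an offset for GC content, the log2 fold change of NAB2 was 0.02 (edgeR, Benjamini-Hochberg adjusted p = 0.901). With that same offset EGR1 stood at 1.77. NAB2 also shares 69 exonic bases with STAT6 on the opposite strand, a gene at 156 ± 6.16 CPM in SCC and 151 ± 1.84 CPM in RCC. For STAT6 the log2 fold change (0.05, adjusted p = 0.704) turned to -0.06 with the GC offset. Whether the counting used strand is not given in the sources used here.

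NAB1 (ENSG00000138386, chr2:190646746-190692766, plus strand) was at 6.74, 7.98 and 7.72 FPKM in SCC and at 8.30, 7.55 and 8.87 FPKM in RCC. The lowest and the highest library were of different groups, but the remaining values interleaved. The log2 fold change was -0.14, with a 95% interval of -0.34 to 0.07 (edgeR, Benjamini-Hochberg adjusted p = 0.438). With the GC offset it was -0.04. The interval leaves out any rise of the size seen for EGR1. Small antisense or overlapping genes, AC006460.1 and AC006460.2, share 186 and 10 exonic bases with NAB1 and had at most 33 counts in any library, against 766 to 941 for NAB1.

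**Figure D3:**
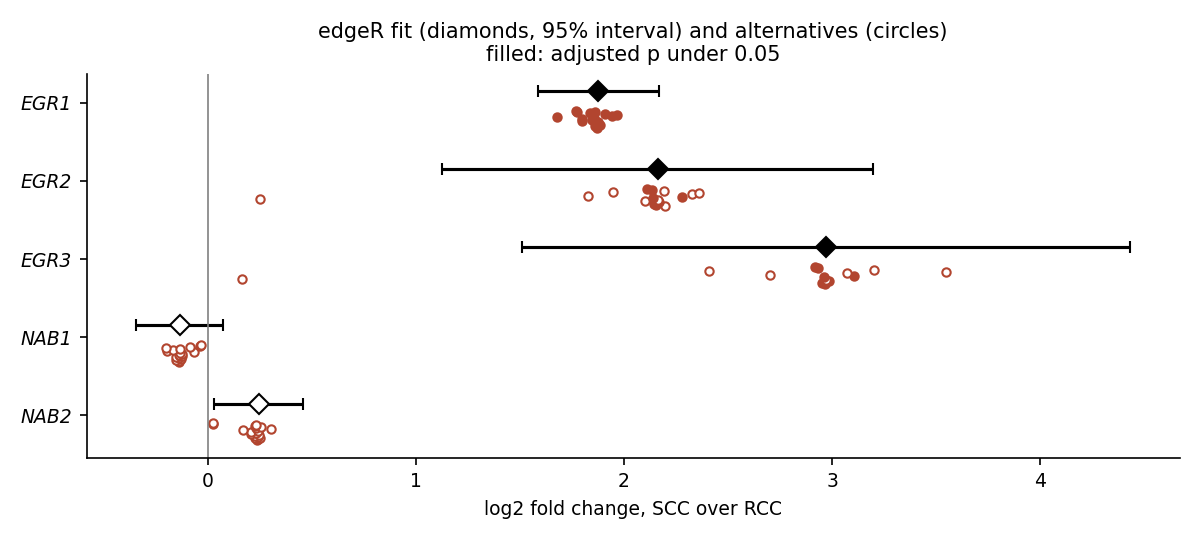
Log2 fold change of SCC over RCC for each member from edgeR (diamonds, with 95% interval as bars) and under the alternatives (circles), filled where the adjusted p is under 0.05. The intervals of EGR1, EGR2 and EGR3 lie above 1, and those of NAB1 and NAB2 lie below 0.5; the circles for EGR2 and EGR3 near 0 are limma fits on log2(FPKM + 1) without a filter, a scale that shrinks changes of low values.

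Compared per gene length, the levels fell in the same order in both groups, with EGR1 highest, then NAB2, NAB1, EGR2 and EGR3. In SCC each gene was above the next in every library. The mean FPKM ratio was 7.56 for EGR1 over NAB2, 1.31 for NAB2 over NAB1, 28.7 for NAB1 over EGR2 and 1.87 for EGR2 over EGR3. In RCC the corresponding ratios were 2.44, 1.01, 146 and 3.42, and there the values of NAB2 and NAB1 overlapped. NAB2 over NAB1 within a library was 1.59, 1.10 and 1.29 in SCC and 1.03, 1.09 and 0.930 in RCC. These FPKM values carry no GC offset, and the longest transcript of NAB2 is 62.6% GC against 39.9% for that of NAB1. SCC replicate 1, at 1.59, was the library that read higher for GC-rich genes.

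The ratio of factor to corepressor mRNA was higher in SCC, with nearly all of the factor mRNA from EGR1. The summed FPKM of the EGR genes averaged 74.6 ± 15.9 over the SCC libraries and 20.4 ± 0.955 over the RCC libraries (SD, n = 3), and EGR1 made up 99.4% ± 0.251 and 99.6% ± 0.136 of it. The summed FPKM of NAB1 and NAB2 was 17.3 ± 0.475 in SCC and 16.6 ± 0.711 in RCC. Divided within each library, EGR over NAB was 5.32, 3.98 and 3.63 in SCC and 1.27, 1.24 and 1.18 in RCC. The groups did not overlap, with means of 4.31 ± 0.890 and 1.23 ± 0.0472. Leaving out 1 library at a time, the SCC mean ran from 3.81 to 4.65 and the RCC mean from 1.21 to 1.26. This ratio is of mRNA levels, and protein was not measured.

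**Figure D4:**
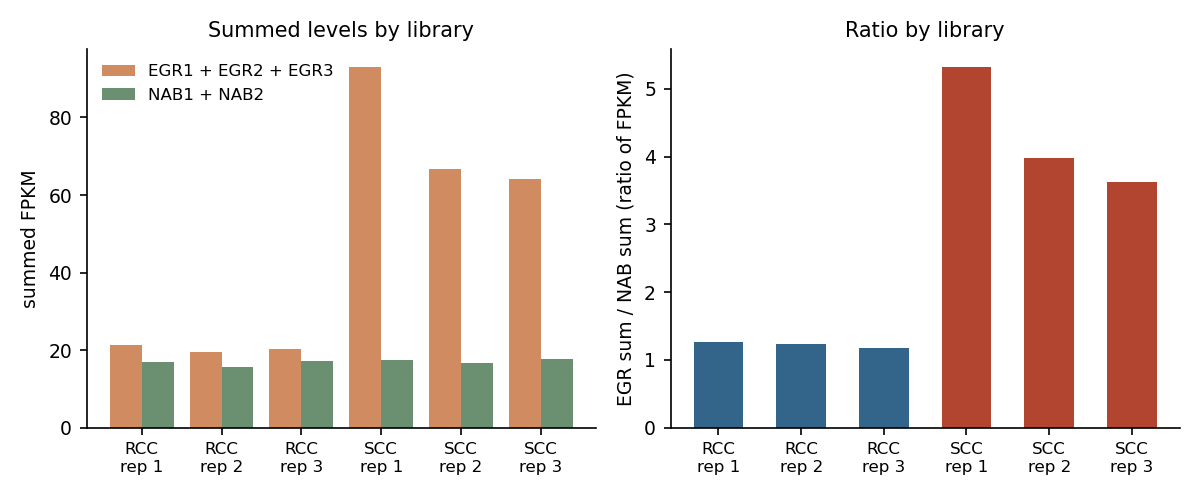
Summed FPKM of the EGR genes and of the NAB genes in each library, and the ratio of the first to the second. The ratio lies at 3.63 or above in the SCC libraries and at 1.27 or below in the RCC libraries, while the NAB sum is similar in both.

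The genes whose profile over the 6 libraries was most like that of EGR1 were JUNB, NR1D1 and HES1. Likeness was the root mean square difference of mean-centred log2 CPM, among tested genes that averaged 5 CPM or more in one of the groups. It was 0.122 for JUNB, which encodes an AP-1 subunit, and that gene stood at 92.1 ± 18.7 CPM in SCC and 26.5 ± 3.27 in RCC. The difference was 0.132 for NR1D1, a nuclear receptor of the circadian clock, and 0.153 for HES1, a repressor induced by Notch. JUNB shares 259 exonic bases with HOOK2 and NR1D1 shares 263 with THRA, both on the opposite strand. AQP1 shares 910 with AC004691.2 on the same strand, and CYP1B1 overlaps 3 genes, with 678 bases shared with CYP1B1-AS1 on the opposite strand. For EGR2, the nearest were OSR2 (0.286), NR4A2 (0.292) and PTGS2 (0.301), of which NR4A2 is an immediate early nuclear receptor and PTGS2 the inducible cyclooxygenase. For EGR3, the nearest were AQP1 (0.306), a water channel, RNU5A-1 (0.339), a spliceosomal RNA with near-identical copies, and CYP1B1 (0.406), a cytochrome P450. All 9 were called higher in SCC, against 1.69% of all genes tested. Choosing them by likeness to called members favours such calls, so their number is no support. The likeness includes the difference between groups and, for EGR2 and EGR3, the counting error of low counts.

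Of 15 genes from the RAF and ERK kinases to SRF and its partners, all were tested and 0 were called in either direction by edgeR, and their median log2 fold change was -0.02 against 0.003 over all genes tested. At an unadjusted p under 0.05, 1 was higher and 2 were lower, against 11.4% higher and 8.27% lower over all genes tested, so that the list was near the background. These genes are named after their values were seen. For MRTFA, an SRF coactivator, the log2 fold change was 0.29 (edgeR, Benjamini-Hochberg adjusted p = 0.221). ELK4, an SRF partner, at -0.28 (0.0688), and CREB1, which binds cAMP response elements, at -0.24 (0.129), had the values below 0. SRF itself was at 0.18 (0.386). DESeq2 called 1 of these genes lower, and edgeR called 2 lower without SCC replicate 1 and 1 lower without SCC replicate 2. The highest-expressed gene not called was ELK3, with 253 ± 2.68 CPM in SCC against 256 ± 11.6 in RCC. These are mRNA levels, and kinase activity was not measured.

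Of 6 genes for other factors that bind GC-rich elements (SP1, SP3, SP4, MAZ, WT1 and EGR4), 4 were tested and 0 were called by edgeR in either direction, with a median log2 fold change of -0.20. At an unadjusted p under 0.05, 3 were lower and 1 higher, against the same 8.27% and 11.4% over all genes. Without SCC replicate 1, 1 was called lower, and without SCC replicate 2, 1 was called higher. SP3, the most abundant, averaged 111 ± 5.90 CPM in SCC against 124 ± 5.16 in RCC. The GC offset took its log2 fold change from -0.16 to -0.05. Of the 13 genes of the NuRD complex, which NAB proteins recruit, all were tested and 0 were called in either direction, with a median of -0.02. At an unadjusted p under 0.05, 1 was lower (RBBP4) and 0 were higher, which for the lower genes is near the share over all genes given above. CHD4, the subunit that binds NAB2, averaged 33.7 ± 3.03 CPM in SCC against 33.1 ± 2.07 in RCC (log2 fold change 0.03, adjusted p = 0.891). CHD3, a related subunit and the most abundant of the list, averaged 281 ± 31.4 CPM against 269 ± 9.13.

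Of 24 genes described as EGR1 targets, 21 were tested, 7 were called higher in SCC and 0 lower, against 1.69% and 0.378% over all genes, with a median log2 fold change of 0.35 against 0.003. The log2 fold change was above 0 for 17 of the 21, against 50.5% of all genes. ATF3, a stress-induced transcription factor, went from 3.32 ± 0.731 to 23.6 ± 1.70 CPM, a log2 fold change of 2.81 (edgeR, Benjamini-Hochberg adjusted p = 2.3e-06). ICAM1, an adhesion molecule, rose by 1.51 (0.00109), and IL6, an inflammatory cytokine, by 1.66 (0.0102). FN1, the matrix protein fibronectin, rose by 0.49 (0.00167), and GDF15, a stress-induced cytokine, by 0.77 (0.0268). VEGFA, an angiogenic factor, rose by 0.39 (0.0316). The seventh, MMP14, a membrane-bound matrix protease at 0.38 (0.0420), fell outside the rule for naming and was added after its values were seen. The GC offset took that value to 0.22 (edgeR, Benjamini-Hochberg adjusted p = 0.0109). ICAM1, IL6 and VEGFA share exonic bases with antisense genes.

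Leaving out a library cut the number of EGR1 targets called to 3, 3 and 4 without RCC replicates 1, 2 and 3, and glmTreat, which tests against a fold of 1.5, called 2. The IL6 call was lost without RCC replicate 1 (adjusted p = 0.0918) or 2 (0.0682), and GDF15 without RCC replicate 1 (0.130), 2 (0.0851) or 3 (0.146). VEGFA and MMP14 were lost without SCC replicate 3 (0.0710 and 0.111) or any 1 RCC library (0.145 to 0.171 and 0.166 to 0.203). CCND1, the most abundant target not called, averaged 761 ± 67.0 CPM in SCC against 721 ± 13.2 in RCC. Many of these genes are also known targets of AP-1 or NF-kB, and which factor acts on them was not tested.

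Of 11 genes described as EGR2 or EGR3 targets, 8 were tested and 1 was called higher and 0 lower, against the same shares over all genes, with a median log2 fold change of 0.22. The called gene was NDRG1, a stress-responsive gene mutated in a demyelinating neuropathy, with 130 ± 3.14 CPM in SCC against 94.1 ± 2.08 in RCC (log2 fold change 0.46, edgeR Benjamini-Hochberg adjusted p = 0.0032). Without RCC replicate 3 its adjusted p was 0.0555. DGKZ, a diacylglycerol kinase and the most abundant of those not called, had 0.30 (0.257), and 0.08 without SCC replicate 1 or 0.09 with the GC offset. The Schwann cell genes MAG and GJB1 and the T cell gene FASLG had at most 6 counts in any library and were not tested.

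**Figure D5:**
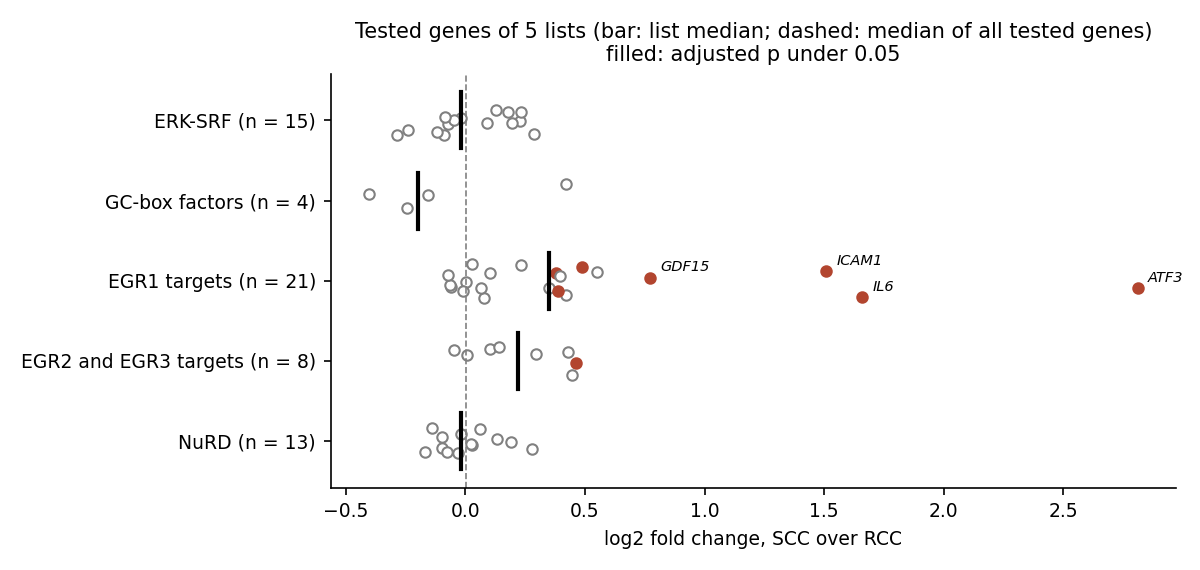
Log2 fold change of SCC over RCC (x axis) for each tested gene of the pathway lists, with called genes filled, a bar at each list's median and a dashed line at the median of all tested genes. The called genes lie in the EGR1 target list (7) and the EGR2 and EGR3 target list (1).

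The windows searched for motifs were also set against the test over all genes. Of 156 tested genes with a CArG box in a RefSeq window, 6 (3.85%) were called higher in SCC, among them EGR1 and EGR2, against 176 of 10480 (1.68%) without one. The others were AQP3, CYP1A1, NAV2 and SOD3. EGR1 and EGR2 were chosen with earlier results of these data known, and EGR2 passed the filter only through SCC. The share with a CArG box includes both, so it is no support. For the EGR site the counts were 17 of 1192 (1.43%) with one and 165 of 9444 (1.75%) without, and the median log2 fold changes were 0.05 and 0.005. In the EGR1 target list, 0 of the 6 called genes with a window held an EGR site, against 5 of 9 that were tested and not called (F3, PDGFA, PTGES, TGFB1 and THBS1). Over all tested genes with a window, 1192 held an EGR site and 9444 did not, so 0 of 6 cannot be told from that background. These are descriptions of a short window, and sites farther away were not searched.

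Library totals ran from 19498054 to 27831824 counts in SCC and from 17655855 to 22746267 in RCC. Markers of the line (VIM, CD44, AXL, CAV1 and MSN) summed to 3637 to 3739 CPM in SCC and 3524 to 3735 in RCC. The luminal and receptor markers ESR1, PGR, GATA3 and FOXA1 were summed with the keratin KRT20. The sums were 17.6 to 22.4 CPM in SCC and 14.99 to 16.3 in RCC, with 3 of the 5 genes below 1 CPM. Leukocyte markers matter here because EGR2 and EGR3 are known from lymphocytes. The 4 of them (PTPRC, CD3E, CD14 and LYZ) summed to 0.613 to 3.004 CPM in SCC and 0.391 to 0.839 in RCC, with all 4 below 1 CPM on average. The highest sum was that of SCC replicate 1, which had 53 PTPRC counts. CD3E had 1 count in SCC replicate 1 and 0 in every other library. Endothelial markers summed to 3.32 to 3.73 CPM in SCC and 3.15 to 3.92 in RCC. Fibroblast markers summed to 23.1 to 28.3 CPM in SCC and 18.6 to 22.2 in RCC, with 2 of the 4 (COL1A2 and DCN) below 1 CPM on average. The sums of the luminal, receptor and KRT20 set and of the fibroblast set thus did not overlap between the groups. The same was so for 27.8% of all single genes tested. No marker of these 4 other sets was called by edgeR. Some, such as CD3E, PGR, COL1A2 and DCN, had counts too low to be tested, so the lack of a call says nothing about them. The part of other cell types in the EGR results was not tested. Of the 5 cycling genes, 1 was called. CDKN1A, a cell cycle inhibitor, was higher in SCC (log2 fold change 0.69, edgeR Benjamini-Hochberg adjusted p = 7.5e-04), whereas MKI67 (0.12, 0.401) and CCNB1 (-0.11, 0.388), markers of dividing cells, were not called. The inhibitor CDKN1B had 1525, 1173 and 1226 counts in SCC and 1372, 1357 and 974 in RCC. CDKN1C, another inhibitor, had 164, 91 and 78 against 81, 93 and 86, and neither was called.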

How the data were processed

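RNA-seq of 3 SCC and 3 RCC libraries was deposited as whole-number counts per gene and as FPKM values, which the authors made. Alignment with HISAT2 2.0.5 and counting with featureCounts 1.5.0-p3 are named in the submitters' processing notes, and the NEBNext Ultra kit in the labels' protocols. Strand use and the genome build are not given in the sources used here. GENCODE 29 on GRCh38 matched 58724 gene rows by ID and position, and gene coordinates are printed on that build. The deposited tables also gave each gene's length (another measure, in bases).

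Counts were filtered (filterByExpr by group, minimum count 10), TMM-scaled and tested with edgeR 4.0.16 in R 4.3.3 (glmQLFit, group alone, two-sided, Benjamini-Hochberg over all tested genes). CPM uses TMM-scaled totals, except the limit from 3 counts, which uses the raw total. Poisson intervals cover counting error only, since no molecular identifiers are stated. The members and the gene lists were chosen with earlier results of these data known, so that no list is independent support. Named genes were all members, the called genes of each list up to the 6 with the smallest p, its most abundant gene not called, EGR4, genes overlapping a member, the 3 nearest profiles of each called member, and MKI67, CCNB1 and CDKN1A. List symbols were updated for 2 genes, and 3 genes of the lists are not reported here. Simulated data were used to test the fit. Alternatives were DESeq2 1.42.0, RLE and upper-quartile scaling, other filters, thinning to the smallest library, glmTreat, limma 3.58.1 on log2 FPKM, a block for the replicate number, and leaving out single libraries. GC offsets (lowess, span 0.3, over 15874 tested genes with a GC value) were added after seeing the data. Libraries of the same group differed by more than sampling noise (chi-square per degree of freedom 3.17 to 24.6).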

Additional observations from a re-analysis of the deposited data

How the results depend on the processing

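EGR1 was called higher under all 19 alternatives (log2 fold change 1.68 to 1.97, largest adjusted p 0.0243), and NAB1 (-0.20 to -0.03) and NAB2 (0.02 to 0.31) were called under none of 19. EGR2 was not called by DESeq2 (2.20), after thinning (2.10), by glmTreat against a fold of 1.5 (2.16) or by limma on log2(FPKM + 1) without a filter (0.25). EGR3 was not called by glmTreat (2.97) or unfiltered limma (0.16). With a library left out EGR2 ranged from 1.83 to 2.36 and EGR3 from 2.41 to 3.55. The limma fits with a filter and the filter of 10 counts in every library tested neither gene, and thinning left out EGR3. The number of members called fell from 3 to 1 under DESeq2, 10 counts in every library, thinning, glmTreat and all 3 limma fits, and was 1 to 3 with a library left out. Over all genes, the counts called higher and lower were 394 and 120 in DESeq2, 995 and 315 without a filter, 50 and 1 by glmTreat, and 130 and 36, 117 and 34, and 48 and 1 in the limma fits (pseudocounts 1 and 0.1, and 1 unfiltered). With the GC offset they were 523 and 245 (68.1% higher, against 81.7% for 268 and 60), and with a library left out 99 to 642 and 8 to 343. EGR1 targets called higher numbered 7 in the edgeR fit, 4, 3 and 2 in the limma fits and 2 by glmTreat; EGR2 or EGR3 targets numbered 3 without a filter and 0 by glmTreat, against 1. Without a filter, 1 GC-box factor and 1 NuRD gene were called higher, and with the block and GC offset 1 GC-box factor was called lower. ELK3 changed sign with the GC offset (0.052, and 0.052 with the block) and ranged from -0.062 to 9.4e-04 with a library left out. CHD3 changed sign likewise (-0.045 and -0.045, range -0.033 to 0.099), as did STAT6 (-0.058 and -0.059). The cause was not tested. Deviations from the group means correlated little between same-numbered libraries (-0.009, 0.025 and -0.079). So few values cannot decide whether the libraries were paired. With the replicate number as a block, EGR2 had 2.14 (adjusted p = 0.0462) and EGR3 2.96 (0.0480), and 350 genes were higher and 106 lower, or 621 and 432 with the GC offset as well. Depth limits EGR2 and EGR3.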
